A study of Homo sapiens with 6 samples.

Results

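The keratins described here are 10 genes of squamous and simple epithelium: KRT5, KRT7, KRT8, KRT13, KRT15, KRT17, KRT18, KRT19, KRT23 and KRT80. They were listed by name, and each was read from probe sets annotated to that gene alone. Of the 10 genes, 9 had such a probe set, among 18132 genes on the array that did. KRT17 had none and was not measured here. Of the 9, 8 passed the filter on low signals that left 13599 genes to test, and KRT13 lay below it. The arrays compared a TE-1 clone in which EIF3C, a subunit of the translation initiation complex eIF3, was stably knocked down, with its TE-1 parental cells as control, 3 arrays each. TE-1 is a cell line from a human oesophageal squamous cell carcinoma, and both groups were grown in the same serum-containing medium. The knockdown arrays all come from 1 clone, the labels name no cells with a control construct, and replicates are called biological without a record of separate cultures. So p-values cover only the spread among these arrays, which may be technical.

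Keratins are the intermediate filament proteins of epithelial cells. A filament is built from paired chains, each pair joining an acidic type I keratin with a neutral or basic type II keratin, and the filaments are anchored at desmosomes and hemidesmosomes. Simple epithelia typically carry KRT8 and KRT18, with KRT7 and KRT19 in ducts and glands. In stratified squamous epithelium such as that of the oesophagus, basal cells carry KRT5 with KRT14 and KRT15, and the cells above them carry KRT4 with KRT13.

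The knockdown was seen in the target itself. The brightest probe set of EIF3C, which is shared with the near-identical gene EIF3CL, had log2 signals of 8.42, 8.41 and 8.49 in knockdown, against 10.69, 10.60 and 10.56 in control. Array medians lay between 6.09 and 6.11 and correlations between arrays were at least 0.9977 within groups and at most 0.9846 between groups. As a measure of shifts that no human transcript causes, 85 non-human control probe sets had differences, knockdown minus control, from -0.22 to 0.20 on the log2 scale.

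In EIF3C knockdown cells, the transcripts of the basal keratin KRT15 and of KRT19, KRT7 and KRT80 were lower, and those of KRT8, KRT18 and KRT23 were higher. The largest fall was that of KRT15, to 52.9% of the control level, and the largest rise that of KRT23, to 144%. Of the 8 keratins tested, 3 rose and 4 fell, and KRT5 did not pass the threshold (limma with Benjamini-Hochberg adjustment over all genes tested, adjusted p of 0.05). Calls were common in this comparison: 66.5% of all genes tested passed, 32.4% as higher and 34.1% as lower. A change of at least 2-fold was found for 4.82% of genes and for 0 of the 8 keratins. The median log2 difference, knockdown minus control, was -0.08 over the 8 keratins and -0.03 over all genes tested. The groups did not overlap for 7 of the 8 keratins, and for 70.3% of all genes.

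**Figure D1:**
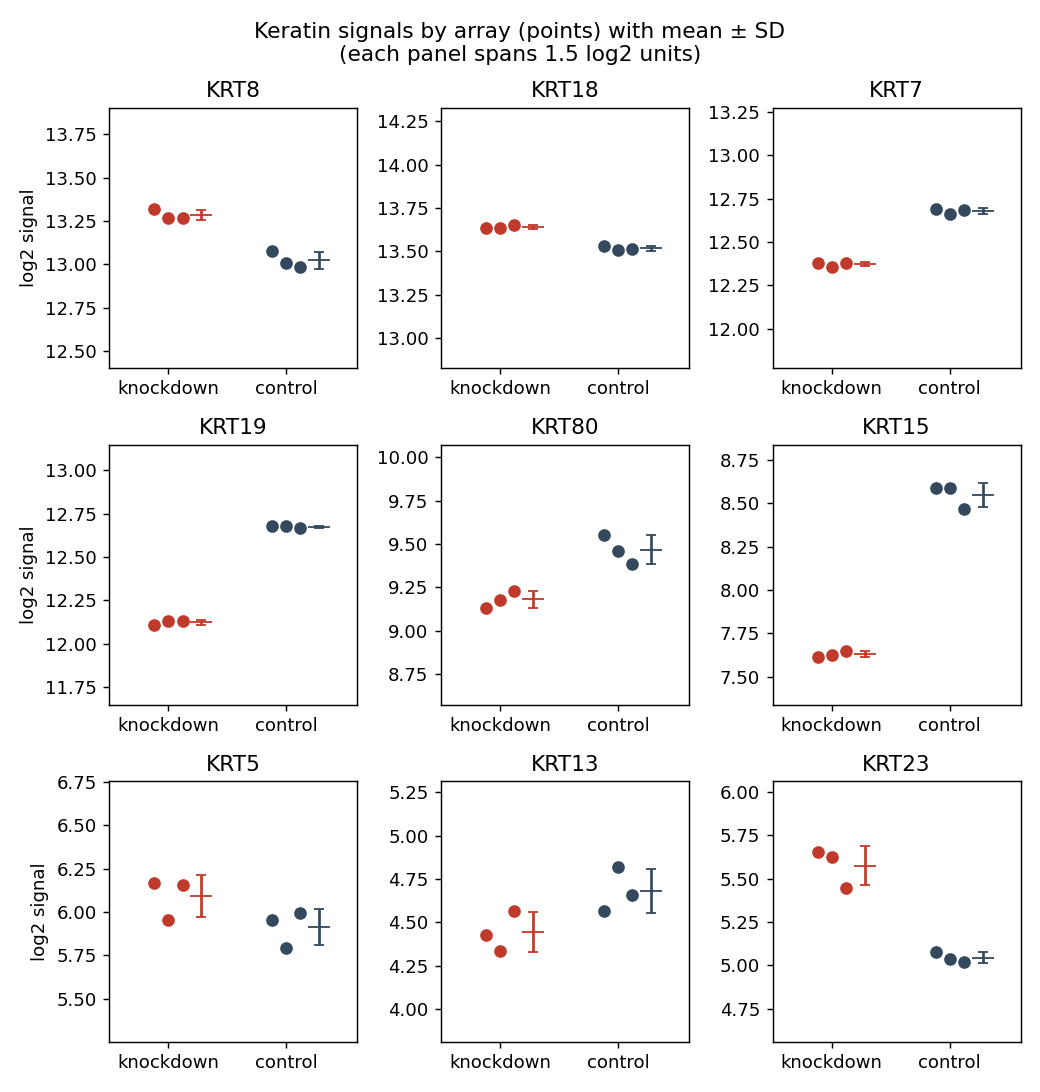
Log2 signal of the 9 measured keratins in each array (points), with mean ± SD (n = 3 each) beside them, EIF3C knockdown in red and control in dark blue. Each panel spans the same width of log2 signal; knockdown lies apart from control for every gene shown except KRT5 and KRT13.

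The simple-epithelium pair KRT8 and KRT18 gave signals near the top of the array's range. KRT8, the type II chain of the pair, had log2 signals of 13.32, 13.27 and 13.27 in knockdown, against 13.08, 13.01 and 12.99 in control. Every knockdown array lay above every control array, and the difference was 0.26 (SE 0.02, 95% interval 0.21 to 0.31, adjusted p = 1.75e-08), a 1.20-fold rise. KRT8 was measured by 8 probe sets, and all 8 were called higher, with differences from 0.25 to 0.33; among all human probe sets 48.2% were called. KRT18, the type I partner, had 13.63, 13.64 and 13.65 in knockdown and 13.53, 13.51 and 13.51 in control. Its rise was small, 0.12 (SE 0.01, 95% interval 0.09 to 0.15, adjusted p = 1.16e-06), and its other probe set gave 0.08 and was also called. The rise of KRT18 lies within the range of the non-human control probe sets. All 8 probe sets of KRT8 and both of KRT18 are of the kind that the manufacturer marks as open to cross-hybridisation, and related sequences could therefore add to these signals.

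KRT7 and KRT19, also bright, went the opposite way. KRT19, a type I keratin of simple epithelia that is also made in basal cells of some stratified epithelia, had signals of 12.10, 12.13 and 12.13 in knockdown, against 12.68, 12.68 and 12.67 in control. The arrays of each group lay within a few hundredths of each other, and the fall was 0.55 on the log2 scale (difference -0.55, SE 0.02, 95% interval -0.59 to -0.51, adjusted p = 6.22e-14), which left 68.2% of the control level. KRT7, a type II keratin of glandular and ductal cells, had 12.38, 12.36 and 12.38 in knockdown and 12.69, 12.66 and 12.69 in control. Its difference was -0.31 (SE 0.02, 95% interval -0.34 to -0.27, adjusted p = 9.25e-11), which left 80.9%. KRT7 and KRT19 each have a single probe set, so no further probe set bears on their change.

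Changes at this brightness were small in general. Among the 198 genes with a mean signal of at least 12, the median size of the difference was 0.13, against 0.29 among the 4353 genes with signals from 8 to 10. Of these 198 genes, KRT19 ranked 9 by size of change, KRT7 41, KRT8 49 and KRT18 104. The largest size of change among them was 0.82, whereas it was 2.92 for genes from 8 to 10, a group with many more genes. Small changes were not particular to bright genes, as the median size was also 0.13 for the 3008 genes with signals under 6. Whether bright signals understate changes on this array was not tested.

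**Figure D2:**
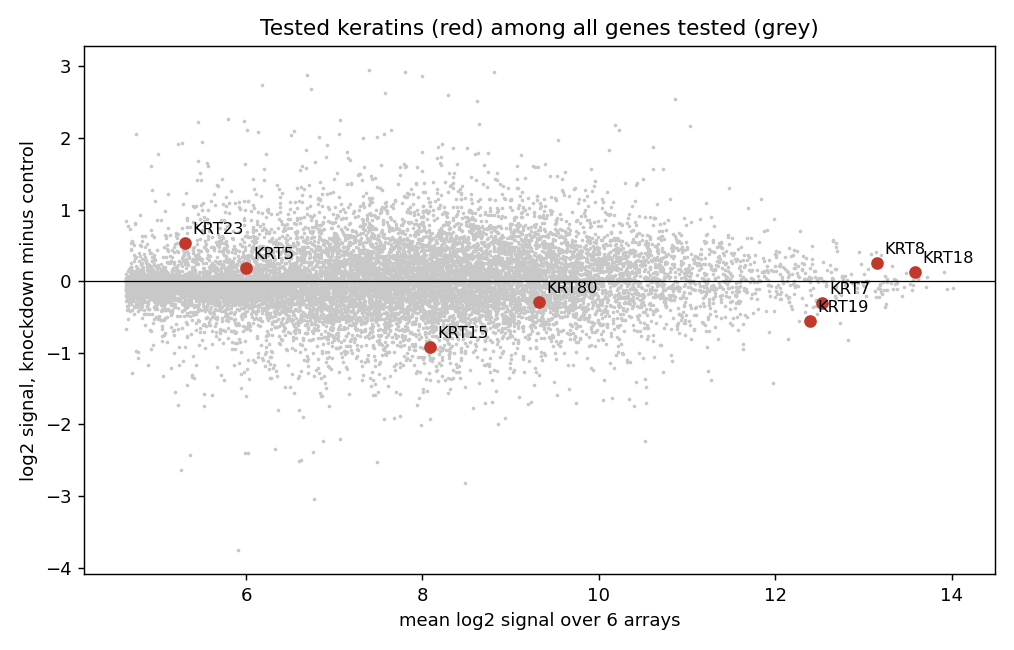
Difference in log2 signal, knockdown minus control, against the mean log2 signal over 6 arrays, for the 13599 genes tested (grey) and the 8 tested keratins (red). KRT7, KRT8, KRT18 and KRT19 lie at mean signals above 12, where few genes changed by much, and KRT15 lies in the middle of the range with a difference of -0.92.

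The basal-layer keratins moved differently from each other. KRT15, a type I keratin of basal cells in stratified epithelia, had signals of 7.61, 7.63 and 7.65 in knockdown, against 8.59, 8.59 and 8.47 in control. The groups were well apart, with a difference of -0.92 (SE 0.05, 95% interval -1.02 to -0.82, adjusted p = 1.51e-11), a 1.89-fold fall. In size this change exceeded those of 93.8% of the genes tested, but KRT15 has only a single probe set. KRT5, the type II keratin that defines basal squamous cells, was dim, with 6.17, 5.95 and 6.16 in knockdown and 5.95, 5.79 and 5.99 in control. The groups overlapped and the difference of 0.18 did not pass (SE 0.08, 95% interval 0.01 to 0.35, adjusted p = 0.0635). A dimmer probe set of KRT5 had 4.83, 4.81 and 4.76 in knockdown, against 4.53, 4.28 and 4.30 in control. On it every knockdown array was the higher, by 0.43 on average (SE 0.09, adjusted p = 0.00117 in the fit over all human probe sets). KRT5 passed under some alternatives, among them quantile normalization (adjusted p = 0.0498), the mean of its probe sets (0.00123), array weights (0.0114) and leaving out knockdown replicate 2 (0.0200) or control replicate 3 (0.0301), so its call rests on the setting.

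KRT13, the type I keratin of differentiating cells in the oesophageal lining, was dim. Its brightest probe set had 4.43, 4.34 and 4.57 in knockdown, against 4.57, 4.82 and 4.66 in control, and the groups overlapped. The mean over the 6 arrays was 4.56, below the 4.635 needed for testing, and its further probe sets differed by -0.07 and 0.04. With no filter on low signals, KRT13 passed as lower (difference -0.24, adjusted p = 0.0490). In the fit over all human probe sets, 0 of its 3 probe sets passed (limma, adjusted p from 0.0598 to 0.732), and 1 had an unadjusted p under 0.05.

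KRT23 and KRT80 are less studied epithelial keratins. KRT23, a type I keratin, was dim but apart between the groups, with 5.65, 5.63 and 5.45 in knockdown and 5.08, 5.04 and 5.02 in control. The rise was 0.53 (SE 0.08, 95% interval 0.35 to 0.71, adjusted p = 2.82e-05), and only 11.0% of the genes tested had a lower or equal mean signal, so its fold is uncertain. KRT80, a type II keratin, had 9.13, 9.18 and 9.23 in knockdown, against 9.55, 9.46 and 9.39 in control. The groups did not overlap, and the difference was -0.29 (SE 0.04, 95% interval -0.37 to -0.20, adjusted p = 1.07e-05). KRT23 and KRT80 each have a single probe set.

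**Figure D3:**
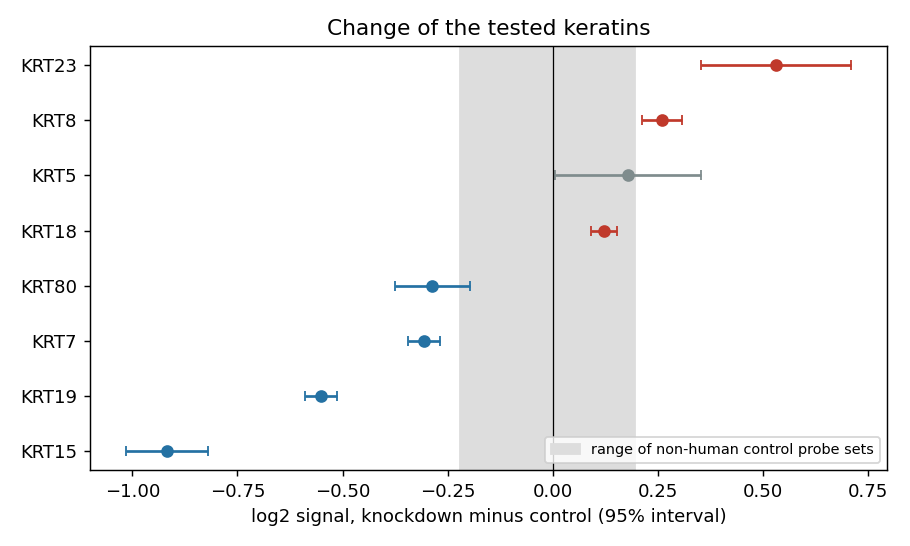
Difference in log2 signal, knockdown minus control, of the 8 tested keratins with 95% intervals from limma; red points were called higher, blue points lower and the grey point (KRT5) did not pass. The grey band spans the differences of the non-human control probe sets, -0.22 to 0.20, and KRT5 and KRT18 have their point inside it.

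Neither keratin type moved as a whole. Of the 4 type II genes tested, KRT8 rose, KRT7 and KRT80 fell and KRT5 did not pass. Of the 4 type I genes, KRT18 and KRT23 rose and KRT15 and KRT19 fell. Type I and type II keratins that can share a filament were set against each other by the change in the per-array gap between their signals. The gap moved in favour of the first-named gene by 0.14 for KRT8 and KRT18, by 0.25 for KRT7 and KRT19, by 0.81 for KRT8 and KRT19 and by 1.10 for KRT5 and KRT15. For each of these 4 pairs the gaps of the 2 groups did not overlap, and the exact two-sided permutation test gave p = 0.1, also after adjustment over the 4 pairs, which is the smallest p that 3 against 3 arrays allow. Single genes did not overlap between the groups in 70.3% of cases, and the share over all gene pairs was not computed. KRT8 and KRT19 each stand in 2 of the pairs, so the pairs are not independent. The KRT5 gap rests on its brighter probe set.

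**Figure D4:**
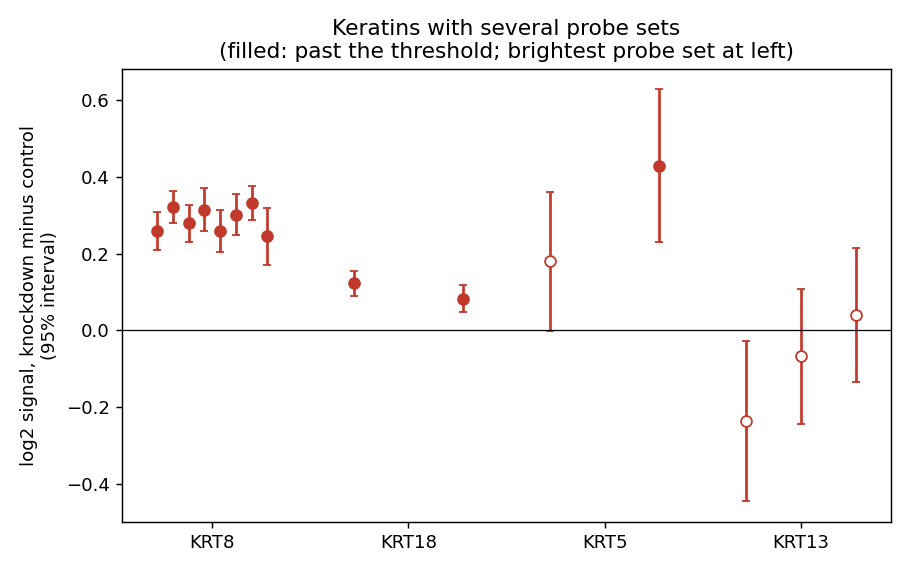
Difference in log2 signal, knockdown minus control, with 95% intervals, for every probe set of the 4 keratins that have several, the brightest at the left of each gene; filled points passed the threshold in the fit over all human probe sets. The 8 probe sets of KRT8 lie between 0.25 and 0.33, the pair of KRT18 at 0.12 and 0.08, and those of KRT13 on both sides of 0.

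Among 45 other keratin genes, most were dim and few were called. Of these, 38 had a probe set of their own, 17 passed the filter, 1 rose and 2 fell, which is 17.6% called, against 66.5% of all genes. Most of the 17 had a mean signal under 6, and of all tested genes with such a signal 960 of 3008 were called. The median difference of the 17 was -0.05. KRT10, the type I keratin of differentiating epidermal cells, rose by 0.26, with 9.62, 9.77 and 9.63 in knockdown and 9.48, 9.37 and 9.38 in control (adjusted p = 2.55e-05). KRT32, a hair keratin, had a difference of -0.19 (adjusted p = 0.0167) and KRT6C, a type II keratin of stressed and proliferating squamous epithelium, one of -0.16 (adjusted p = 0.0239). KRT6C shares most of its sequence with KRT6A and KRT6B, which were not analysed here, so its signal may include theirs. The calls of KRT32 and KRT6C were lost without knockdown replicate 2 or control replicate 1, which left 1 of the 17 called, and that of KRT6C also without control replicate 2. KRT14, the usual type I partner of KRT5, did not pass (difference -0.18, adjusted p = 0.108), nor did KRT4, the usual type II partner of KRT13 (-0.03, adjusted p = 0.696).

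Transcripts of genes whose proteins bind or anchor keratin filaments went both ways. Of 18 such genes, 17 were tested, 4 rose and 5 fell, and the median difference was -0.02. The share called was 52.9%, against 66.5% of all genes. With the mean of each gene's probe sets, 2 of the list rose and 6 fell. The desmosomal plaque gene DSP, whose product desmoplakin ties keratin filaments to desmosomes, had signals of 10.50, 10.44 and 10.45 in knockdown, against 10.95, 10.87 and 10.76 in control, a difference of -0.40 (adjusted p = 4.63e-08). JUP, or plakoglobin, fell by 0.23 and PKP2, a plakophilin, by 0.26 (adjusted p = 3.67e-06 and 1.04e-05). FAM83H, which recruits casein kinase 1 to keratin filaments, fell by 0.35 (adjusted p = 4.20e-06). The casein kinase gene CSNK1A1 rose by 0.23 on its brightest probe set (adjusted p = 4.38e-07), but of its 11 probe sets 6 were called higher and 4 lower, and it did not pass once its probe sets were averaged. PNN, or pinin, a desmosome-associated and nuclear protein, rose by 0.42 (adjusted p = 1.44e-10), with 4 of 6 probe sets higher and 1 lower.

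Transcription factors that act on epithelial keratin genes were called in 22 of 27 cases, 12 higher and 10 lower, with a median difference of 0.07. This share was 81.5%, against 66.5% of all genes. Most of the 27 had a mean signal from 8 to 10. Of all tested genes with such a signal, 3564 of 4353 were called. The largest rises were those of the AP-1 subunits FOSL1 and FOS. FOSL1 had signals of 9.77, 9.69 and 9.75 in knockdown, against 7.66, 7.47 and 7.49 in control, a difference of 2.19 (adjusted p = 7.98e-16), and 6 of its 6 probe sets were higher. FOS rose by 1.11 (adjusted p = 5.42e-11) on its brightest probe set, and all 4 of its probe sets were higher, by 0.29 to 1.11. The signal transducer STAT3 rose by 0.78 and the progenitor factor SOX9 by 0.67 (adjusted p = 1.71e-09 and 2.32e-09). EHF, an ETS factor of epithelia, rose by 0.62 and KLF4, a factor of squamous differentiation, by 0.58 (adjusted p = 1.85e-06 and 2.45e-10). For EHF, 3 of 8 probe sets were called. The largest falls were those of CEBPA (difference -0.52), GRHL2 (-0.50), SP1 (-0.44) and GATA3 (-0.42). Their adjusted p were 2.41e-08, 8.82e-06, 4.72e-08 and 3.68e-07 in the same fit. Called lower were 2 of 5 probe sets of GRHL2, 2 of 3 of SP1 and 3 of 3 of GATA3.

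Among intermediate filament genes other than keratins, 3 of 12 tested rose and 5 fell, with a median difference of -0.10 and a share of 66.7% called, about that of all genes, 66.5%. VIM, or vimentin, the filament protein of mesenchymal cells, had signals of 9.76, 9.70 and 9.62 in knockdown, against 8.99, 8.98 and 8.95 in control. The groups were well apart, with a difference of 0.72 (adjusted p = 2.83e-11), seen on both of its probe sets. NES, or nestin, rose by 0.42 and the dim neurofilament gene NEFM by 0.62 (adjusted p = 3.48e-06 and 3.61e-05). SYNM, or synemin, fell by 0.49 and PRPH, or peripherin, by 0.29 (adjusted p = 4.51e-08 and 0.00489). LMNB2, a nuclear lamin gene, fell by 0.52 on its brighter probe set (adjusted p = 8.88e-10) and was called higher on the other, by 0.42. With both averaged, LMNB2 did not pass (difference -0.05, adjusted p = 0.339).

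**Figure D5:**
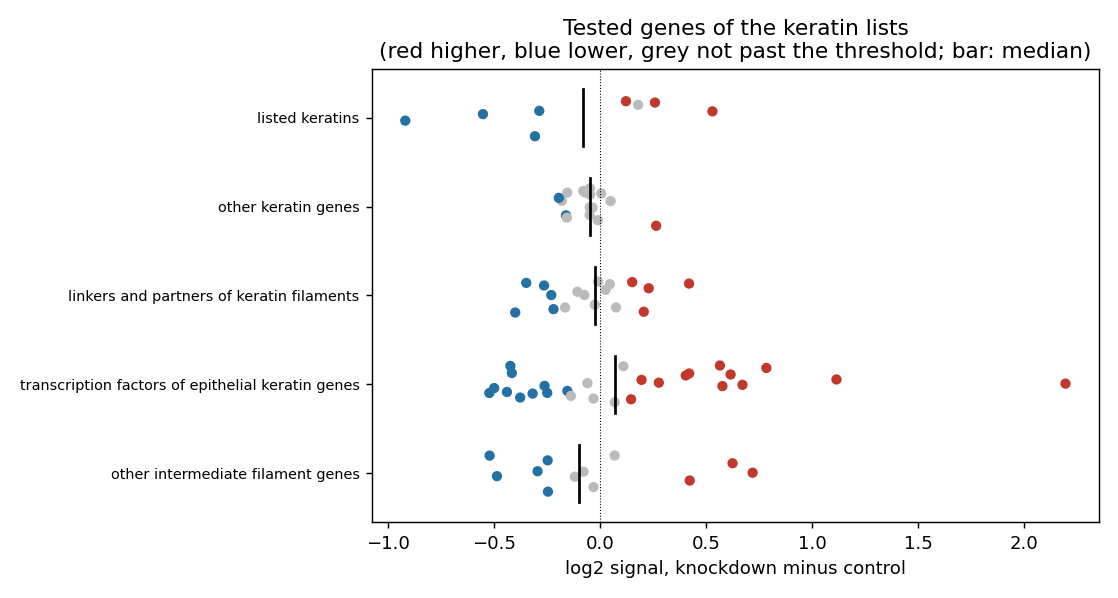
Difference in log2 signal, knockdown minus control, of each tested gene among the listed keratins, other keratins, filament linkers and partners, transcription factors and other intermediate filament genes; red points were called higher, blue lower and grey not called, and the bar is the median of the row. FOSL1, at 2.19, is the point farthest to the right, and KRT15, at -0.92, the one farthest to the left.

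The labelled squamous origin was checked against 8 squamous markers, of which TP63 was not analysed here. TRIM29, a marker of basal squamous cells, had a mean of 7.95 ± 0.09 in knockdown and 8.94 ± 0.03 in control (SD, n = 3 each), and the desmosomal cadherin gene DSG3 had 7.45 ± 0.05 in knockdown and 8.14 ± 0.01 in control. Both fell, with differences of -0.99 and -0.70 (adjusted p = 8.02e-12 and 7.13e-10). SERPINB5, or maspin, rose by 0.30 and SOX2 fell by 0.25 (adjusted p = 5.14e-05 and 0.00890). KRT5, KRT14, PKP1 and SOX2 were dim, at percentiles 22.1, 18.1, 8.50 and 16.4 of mean signal among the genes tested. PKP1 did not pass (difference -0.07, adjusted p = 0.484). The log2 of the summed signal of the 7 measured squamous markers was 9.77 to 9.81 in knockdown and 10.21 to 10.24 in control. As unlogged signals were summed, the brighter markers TRIM29, DSG3 and SERPINB5 weigh most in it. Of the 7 markers, 3 were called lower, 1 higher and 3 not at all. The share called was 57.1%, against 66.5% of all genes, of which 34.1% were called lower.

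Markers of other cell types were dim, with gene means of at most 6.57. Of the columnar intestinal markers 5 of 8 lay under the filter, of the fibroblast markers 4 of 6 and of the leukocyte markers 2 of 3 measured. The log2 summed signals were 7.89 to 7.92 in knockdown and 7.87 to 7.91 in control for the columnar list, and 7.36 to 7.48 in knockdown and 7.34 to 7.50 in control for the fibroblast list. They were 5.72 to 5.90 in knockdown and 5.80 to 6.08 in control for the leukocyte list, and 7.45 to 7.51 in knockdown and 7.28 to 7.38 in control for the 3 endothelial markers. Of the endothelial markers CDH5 was called higher, and of the fibroblast markers COL1A1 was called lower. The part of other cells in the keratin differences was not tested.

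Genes with profiles most like those of KRT15 and KRT23 were found by the Euclidean distance between deviations from each gene's own mean over the 6 arrays. Nearest to KRT15 were SLC2A10 (distance 0.041), AMMECR1 (0.044), AVL9 (0.053) and PABIR2 (0.063), with differences of -0.92, -0.90, -0.93 and -0.92. Nearest to KRT23 were HOMER3 (distance 0.067), ARHGAP19 (0.075), DUS3L (0.082) and DDX51 (0.088), with differences of 0.50, 0.56, 0.53 and 0.52. With 2 groups of arrays, such likeness mostly reflects an equal difference between the groups.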

How the data were processed

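The deposited table holds log2 signals, 1 column per array and 49395 probe sets. Per the submitters' processing notes, MAS5 was the software; no version, background correction or log step is recorded in the labels, and the log2 scale and scaling between arrays were inferred from the values. Signals were used without further normalization. Precision is limited by having 3 arrays per group.

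Probe sets with 1 gene symbol (44988) were kept, with 44961 matched by Entrez ID to RefSeq GRCh38.p14, and the brightest per gene by mean over 6 arrays was used. The lowest 25% of genes by mean were left out. Knockdown was compared with control in limma 3.58.1 (R 4.3.3; lmFit, eBayes with intensity trend) with Benjamini-Hochberg adjustment over 13599 genes; 49293 human probe sets were fitted separately, without a filter. Simulated data for these 13599 genes had 200 genes changed in each of 5 draws. On them the test found 45.7% of log2 changes sized 0.25 and 99.1% of those sized 1, with 3.6% false calls. In the real comparison 9037 genes were called, so the adjustment acts differently there and these shares do not give its power.

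Keratins, lists and tests were chosen with earlier results of these data known. Named were the listed keratins, EIF3C and squamous markers. From each list the called members with the largest changes were named (up to 6, or 10 for other keratins). The 4 nearest profiles to the keratins with the largest rise and fall were also named. KRT4, CDH5, COL1A1, CEBPA, GRHL2, SP1 and GATA3 were added after their values were seen. Alternatives were the filter, quantile normalization, median centring, the mean of probe sets, eBayes without trend or robust, array weights, leaving out each array, and a replicate block.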

Additional observations from a re-analysis of the deposited data

Results flagged for a closer look

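A probe set shared by KRT16, the type I keratin of stressed and proliferating squamous epithelium, and its pseudogenes KRT16P1, KRT16P2 and KRT16P3 was left out of the comparison because it names several genes. It had log2 signals of 3.68, 3.62 and 3.80 in knockdown, against 3.07, 2.91 and 3.23 in control, a difference of 0.63 (adjusted p = 4.10e-05, limma over all human probe sets). Both groups lie below 4.635, the lowest mean kept for testing, and probe sets annotated to KRT16P1 alone differed by -0.20 to -0.05.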

How the results depend on the processing

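Across 15 alternatives for each of the called keratins (14 for KRT23, which the 50% filter left out), KRT7, KRT8, KRT15, KRT18, KRT19, KRT23 and KRT80 kept their direction and their call. KRT15 ranged from -0.96 to -0.90, KRT19 from -0.58 to -0.54, KRT23 from 0.49 to 0.59 and KRT18 from 0.10 to 0.13. The size of the p-values depended on the intensity trend. With eBayes without trend, the adjusted p from limma was 0.0112 for KRT18 and 4.57e-06 for KRT19, against 1.16e-06 and 6.22e-14 with it. KRT5 kept its direction, between 0.12 and 0.30, and passed in 6 of 14 alternatives (adjusted p from 0.00123 to 0.246). The number of listed keratins called ranged from 6 to 8, and that of all genes from 7284 to 9352. With no filter 5 other keratins were called, and with an array left out 1 to 3 were. With a 50% filter 4 other intermediate filament genes were called, of fewer genes tested. The gap for KRT8 and KRT18 moved to 0.19 with the mean of probe sets and that for KRT8 and KRT19 to 0.86 with quantile normalization; the cause was not tested. Same-numbered replicates deviated together weakly (correlations of 0.08, 0.13 and 0.23). As 1 of these was under 0.1 and the labels state no shared batch, the numbers were not taken as pairs, although 5 of 6 arrays correlated best with their own number. With the replicate block, KRT5 passed (difference 0.18, adjusted p = 0.0259) and no other listed keratin changed its call. Without detection calls, dim probe sets near the floor could not be told from background, and their values are uncertain.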

Other observations

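Among the listed keratins, 3 pairs of neighbouring genes had both members called, and each pair changed the same way. By gene order in RefSeq GRCh38.p14, KRT8 neighbours KRT18, KRT7 neighbours KRT80, and KRT15 neighbours KRT19. The differences were 0.26 and 0.12, -0.31 and -0.29, and -0.92 and -0.55. KRT13 also neighbours KRT15 but was not tested. The 3 pairs were noticed after the values were seen and were not tested. Over the genome, 4517 pairs of adjacent protein-coding genes had both members called, and 53.1% of them went the same way.

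KRT17 itself was not measured, and its pseudogenes KRT17P2 and KRT17P5 have 4 probe sets, of which 0 passed and 1 had an unadjusted p under 0.05 (differences from -0.27 to 0.18, limma over all human probe sets).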
